A study of Homo sapiens with 20 samples.

Results

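Mitochondrial ribosomal protein transcripts were followed in the human osteosarcoma line U2OS on 20 Affymetrix 3' expression arrays. A gene was a member if a probe set annotated to it alone carried a symbol of MRPL or MRPS followed by a number, with pseudogene and antisense names left out. This gave 75 genes (48 MRPL and 27 MRPS) on 140 probe sets, of 19775 genes with a probe set of their own, and all 75 lay above the filter on low signal that left 14478 genes for testing. The antisense gene MRPL20-AS1, the pseudogene MRPL45P2 and 3 probe sets shared with another gene name were left out. KGD4, formerly named MRPS36, is a subunit of the alpha-ketoglutarate dehydrogenase complex and is not annotated as an MRPS gene here.

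The arrays cover 5 conditions: untreated control cells, cells kept below 0.1% oxygen (hypoxia) for 3 hr, cells given tunicamycin at 2.5 ug/ml for 3 hr, cells given emetine at 100 ug/ml for 3 hr, and UPF1-depleted cells (shRent1 in the labels). Every condition then received the transcription inhibitor DRB at 100 ug/ml, and RNA was taken when it was added (0 hr) and after 1.5, 3 or 4.5 hr. Each condition and time has 1 array, the labels name no control hairpin, and they do not say whether a stress went on during DRB. Tunicamycin blocks N-linked glycosylation and stresses the endoplasmic reticulum, emetine stops translation elongation in the cytosol, and UPF1 is an RNA helicase that nonsense-mediated mRNA decay depends on. Separate cultures are not stated, so p-values measure only the scatter of these arrays about fitted lines. Bulk RNA cannot tell fewer cells with a transcript from less of it per cell.

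The mitochondrial ribosome makes the core membrane proteins of the respiratory chain from transcripts of mitochondrial DNA. Its RNA is encoded in the mitochondrion, while its proteins are encoded in the nucleus, translated in the cytosol and imported. Part of these proteins descend from bacterial ribosomal proteins, and others were gained in the mitochondrial lineage. The intensities are relative to each array's overall signal. A slope after DRB is therefore no half-life and is best read against the median slope of all genes tested, which was above 0 in every condition (0.022 to 0.030 log2 per hr).

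The promoters of 67 members were in a RefSeq table (GRCh38.p14) of 300 bases, from 250 before to 50 after the start. Of these 67, 41.8% held CCGGAAG, the core bound by ETS factors such as GABPA, on either strand, against 17.3% of 11525 tested genes in the table and 10.7% of all 27305 promoters. AAGATGGC, a form of the YY1 motif, stood in 28.4% of the members, 4.8% of tested genes and 3.0% of all. TGCGCA, part of the NRF1 site, stood in 20.9%, 12.3% and 8.4%. GGGCGG, the core of the SP1 motif, stood in 59.7%, 66.8% and 44.6%, and TATAAA in 3.0%, 6.3% and 12%. The 150 bases before the start are given for 3 members with steep falls after DRB in control cells and for MRPL52, the member with the highest slope there. Capitals mark these motifs on either strand.
MRPL44, chr2:223957313-223957462, plus strand: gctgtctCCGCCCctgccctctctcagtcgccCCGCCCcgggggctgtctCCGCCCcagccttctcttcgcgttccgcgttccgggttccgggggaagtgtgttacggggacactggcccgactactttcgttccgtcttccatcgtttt
MRPS31, chr13:40771191-40771340, minus strand: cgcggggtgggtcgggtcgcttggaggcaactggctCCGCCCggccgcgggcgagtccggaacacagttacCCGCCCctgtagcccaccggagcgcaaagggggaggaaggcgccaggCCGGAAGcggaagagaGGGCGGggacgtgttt
MRPL36, chr5:1799838-1799987, minus strand: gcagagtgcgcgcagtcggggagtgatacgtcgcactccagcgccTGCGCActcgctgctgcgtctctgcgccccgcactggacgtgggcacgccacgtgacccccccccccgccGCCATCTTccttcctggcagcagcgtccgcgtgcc
MRPL52, chr14:22829737-22829886, plus strand: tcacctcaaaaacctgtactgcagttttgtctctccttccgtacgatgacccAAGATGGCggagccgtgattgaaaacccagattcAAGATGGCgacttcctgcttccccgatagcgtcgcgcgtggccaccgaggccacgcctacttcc
Within these 150 bases the MRPL44 stretch held the SP1 core alone, MRPS31 the ETS and SP1 cores, MRPL36 the NRF1 and YY1 motifs, and MRPL52 the YY1 motif. None of these motifs stood in all 3 steep fallers shown, while MRPL44 and MRPS31 both held the SP1 core. MRPS30, which fell more steeply than MRPL36, is not shown. It held none of the motifs in the 250 bases before its start and the YY1 motif in its 300. Motifs were counted separately, whether or not they overlapped. A match is a description of letters and not a bound site.

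The members were abundant. Their median intensity over all arrays was 1458.9, against 214.5 for all genes tested, and all 75 lay above the latter. MRPL51 was brightest at 8031.9, followed by MRPL3 at 6557.1 and MRPL47 at 5563.0. MRPL2, which lies next to the peptidyl transferase centre of the large subunit, was dimmest at 223.6. Most members moved little over the 20 arrays: the highest array exceeded the lowest by a median of 1.72-fold, and 19 members by over 2-fold. MRPL44 had the widest range, from 46.6 to 662.5, or 14.21-fold, and MRPS31 ran from 96.8 to 697.1. A probe set's intensity also depends on its probes, so the order of genes is only approximate.

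The UPF1 depletion label and the cell type were looked at first. No check of the hypoxia, tunicamycin or emetine labels is given here. UPF1 itself read 354.5, 352.4, 392.2 and 377.0 in control cells over the 4 times, and 169.5, 92.4, 94.7 and 89.4 in UPF1-depleted cells, which did not overlap. Of 10 mesenchymal and osteoblast markers, 8 lay above the filter (VIM highest at 15683.1), while COL1A2 and TWIST1 lay below it. Of the other lineages, 3 of 6 epithelial, 2 of 4 blood and 2 of 3 endothelial markers lay above the filter, the brightest being EPCAM at 276.8. The summed epithelial signal was 500.3 to 716.1 in control cells and 444.0 to 797.7 over the stressed and depleted cells. In emetine the summed signal was 29374.0 to 30238.6 for mesenchymal and 96.8 to 114.2 for endothelial markers, below the 35029.4 to 37916.2 and 129.2 to 148.3 of control cells, and the mesenchymal sum was also below control in tunicamycin (31926.5 to 34023.6) and in UPF1-depleted cells (29270.5 to 31539.7). Their part in the results was not tested. The log2 ratio of the 3' to the 5' probe set of ACTB, a sign of RNA integrity or labelling, was 0.551 ± 0.103 (SD, n = 4) in control and 0.537 ± 0.112 in tunicamycin. It was 2.036 ± 0.133 in hypoxia, 2.044 ± 0.186 in emetine and 1.242 ± 0.063 in UPF1-depleted cells, each above every control array. The same ratio of GAPDH moved far less, from 0.039 ± 0.039 in control and 0.003 ± 0.037 in tunicamycin to 0.154 ± 0.044 in hypoxia, 0.111 ± 0.025 in emetine and 0.072 ± 0.016 in UPF1-depleted cells.

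After DRB in control cells, more members fell than rose. A line fitted to each condition (limma, adjusted p under 0.05 over all genes tested) fell for 24 of 75 members and rose for 6, while 17.5% of all genes tested fell and 14.2% rose. The member median was -0.020 log2 per hr and the median of all genes tested 0.026. Falling members came from both subunits: 10 of 30 large-subunit proteins with bacterial relatives, 6 of 20 large-subunit proteins without, and 4 of 14 and 4 of 11 of the small subunit. With quantile normalization 27 fell and 10 rose, and with arrays centred on cytosolic ribosomal protein genes 29 and 3. Dropping the 0 hr array of control cells left 9 called members, and dropping their 4.5 hr array left 16.

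**Figure D1:**
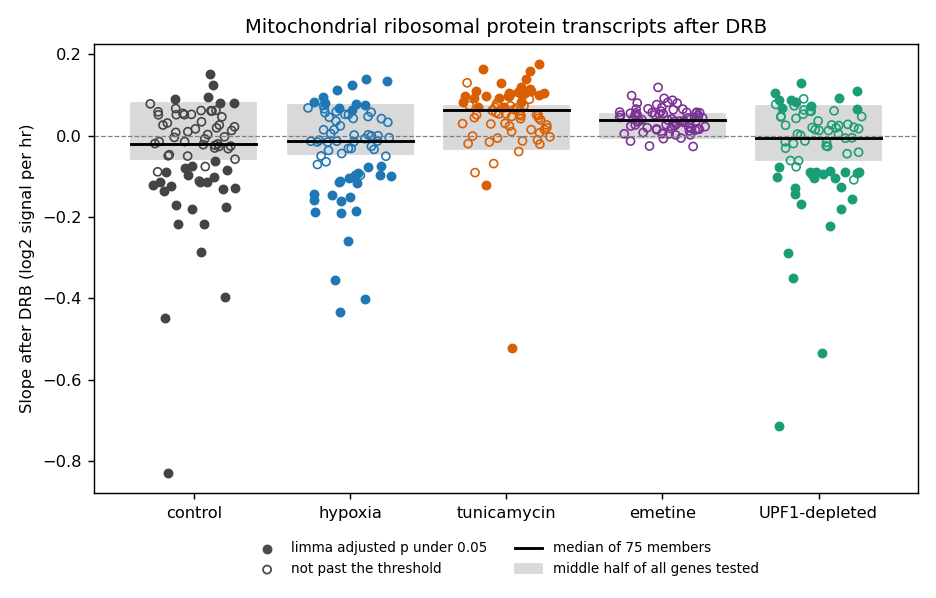
Slope of each of the 75 members after DRB (vertical axis, log2 signal per hr) in the 5 conditions, filled where the limma adjusted p is under 0.05. The black line is the member median and the grey band runs from the lower to the upper quartile of all genes tested. Steep falls are seen for several members in control (down to -0.83 for MRPL44), hypoxia and UPF1-depleted cells, for MRPL44 alone in tunicamycin (-0.52), and for none in emetine.

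MRPL44, a protein of the RNase III family near the polypeptide exit of the large subunit, lost signal fastest. It read 537.9, 346.7, 96.4 and 46.6 in control cells over the 4 times, so 8.7% of the 0 hr signal remained. The slope was -0.83 ± 0.067 log2 per hr (SE, limma adjusted p = 1.37e-06). The last of these readings lies near the median of all probe sets on that array (39.9). The part of background signal in this slope, and in differences from it, was not tested. In UPF1-depleted cells MRPL44 read 505.8, 324.4, 145.0 and 55.8, and in hypoxia 308.8, 246.4, 114.7 and 88.7. Its slopes there were -0.71 and -0.43, both past the threshold. Under tunicamycin MRPL44 read 469.3, 391.1, 172.0 and 100.8, a fall of 0.52 per hr that also passed. Under emetine it stayed at 662.5, 609.6, 599.5 and 607.2, above every array of the other conditions. Its second probe set, which lay at the filter, had a control slope of -0.11 that did not pass.

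MRPS31, a small-subunit protein without a bacterial relative, behaved differently under tunicamycin. It read 515.1, 372.1, 162.7 and 144.1 in control cells and 499.1, 407.2, 215.1 and 96.8 after UPF1 depletion. Under tunicamycin it read 604.4, 623.2, 651.3 and 583.1, all above the 12 arrays of control, hypoxia and UPF1-depleted cells. Emetine arrays lay at 633.0 to 697.1. The slope of MRPS31 was -0.45 ± 0.053 in control, -0.0061 ± 0.053 in tunicamycin and 0.0045 ± 0.053 in emetine. A second MRPS31 probe set of similar brightness gave -0.34 in control, also past the threshold.

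MRPS30, which despite its name sits on the large subunit, and MRPL36, a small zinc-binding protein of the large subunit, showed the same split. MRPS30 fell from 1279.6 to 404.1 in control cells, 31.6% of its 0 hr signal, and read 1235.7, 1518.2, 1353.1 and 1466.4 under tunicamycin. MRPL36 read 2278.3, 2073.9, 1350.9 and 972.4 in control cells and 2067.7, 2220.0, 2118.2 and 1990.7 under tunicamycin. The late control arrays lay below all tunicamycin arrays for both genes. Under emetine, MRPS30 read 1079.8 to 1216.9 and MRPL36 1823.7 to 1901.6. MRPS30 rests on its brightest probe set: 2 dimmer ones had control slopes of -0.018 and -0.048 that did not pass.

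**Figure D2:**
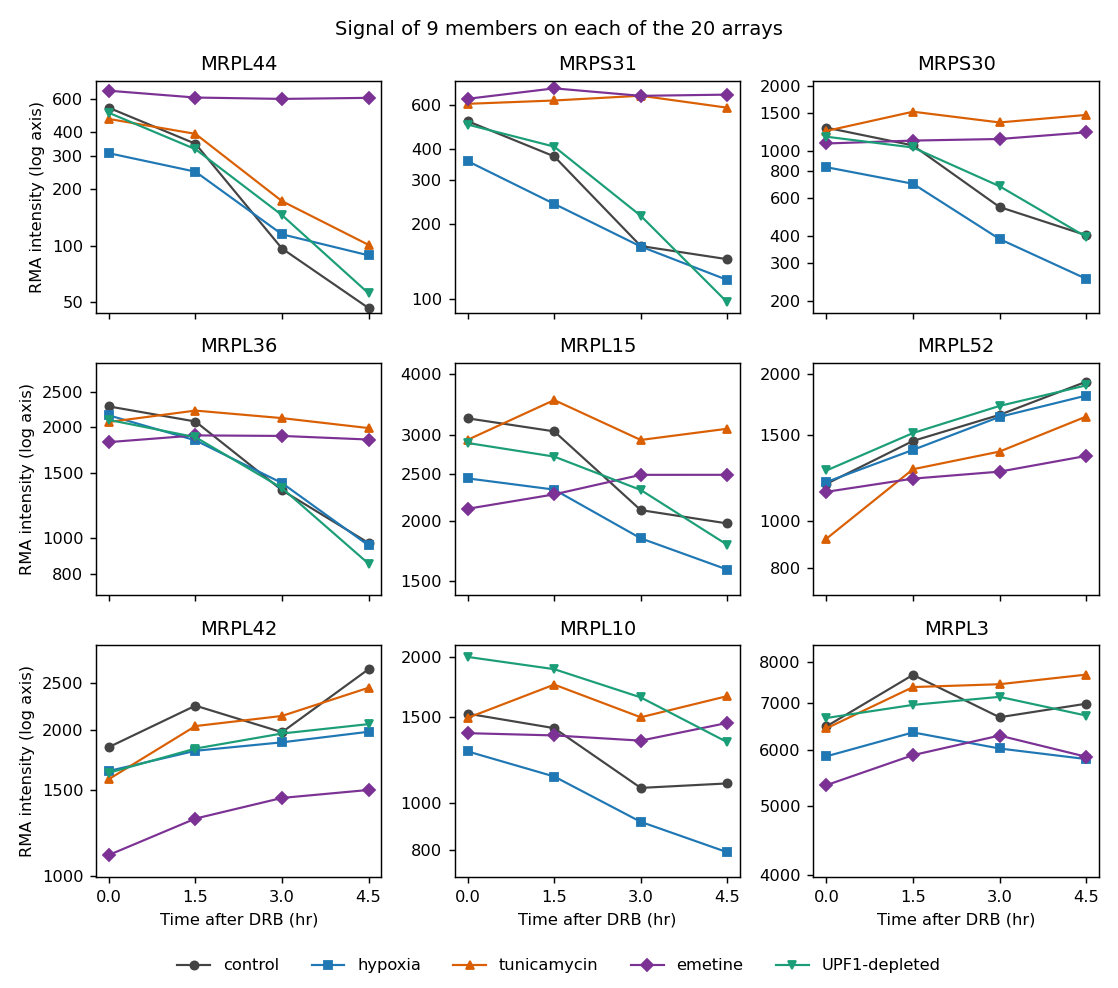
RMA intensity (log axis) of 9 members against time after DRB (hr), 1 point per array and 1 line per condition. MRPL44, MRPS31, MRPS30 and MRPL36 drop in control, hypoxia and UPF1-depleted cells and stay near their 0 hr signal in emetine, where MRPL44 keeps 91.7%; MRPL52 ends above its 0 hr signal in every condition.

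Further members that fell in control cells include MRPS2 of the small subunit (-0.22 ± 0.036), MRPL34 (-0.22 ± 0.035) and MRPL15 (-0.18 ± 0.034), both of the bacterial core of the large subunit. At the other end MRPL52 rose, reading 1190.2, 1459.1, 1651.1 and 1931.9, a slope of 0.15 ± 0.024 (adjusted p = 0.000322). MRPL48, MRPL42, MRPL24, MRPL23 and MRPL11 also rose in control cells, by 0.081 to 0.12 per hr. MRPL23 and MRPL24 lie at the polypeptide exit, as does MRPL44, so proteins of this site stood at both ends. Of the stalk proteins that recruit translation factors, MRPL10 fell (-0.12 ± 0.031), MRPL11 rose and MRPL12 did not pass (0.062 ± 0.024).

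Hypoxic and UPF1-depleted cells shared most fallers with control cells. In hypoxia 22 members fell and 11 rose, against 14.2% and 15.3% of all genes tested. In UPF1-depleted cells 22 fell and 10 rose, against 16.5% and 11%. Of the 24 that fell in control cells, 21 fell in hypoxia and 21 in UPF1-depleted cells, which is 87.5% of the control list and 95.5% of either other list. Over all genes tested, 69.9% of those falling in control fell in hypoxia and 77.7% in UPF1-depleted cells, which is 86.3% and 82.3% of the other lists, so most falling transcripts were shared in general. Of the 6 risers, 5 rose in each. Centring on cytosolic ribosomal protein genes gave 28 falling and 4 rising in hypoxia, and 25 and 4 in UPF1-depleted cells, where quantile normalization gave 23 and 12. These counts were lower without an end array: 5 members passed in hypoxia without its last array and 11 without its first. In UPF1-depleted cells 5 and 8 passed, and 21 without the array at 1.5 hr. Leaving out an end array shortens the span of times and widens the SE of a slope. Fewer members can then pass even where that array lies on the line of the others.

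The slopes themselves did not differ from control past the threshold in these conditions. For hypoxia, 0 of 75 slope differences passed in limma (1 at an unadjusted p under 0.05), and 0.0345% of all genes tested passed. For UPF1-depleted cells 0 passed (0 at an unadjusted p under 0.05), against 0.0414%. Member medians were 0.013 and 0.010 log2 per hr. The largest in hypoxia was MRPL44 at 0.40 ± 0.069 per hr (adjusted p = 0.0745), whose 0 hr signal was also low there. In UPF1-depleted cells MRPL44 differed from control by 0.12 ± 0.069 and MRPS31 by -0.09 ± 0.072. The median SE of a member's slope difference was 0.038 per hr, and the MRPL44 value shows that differences of many times this size could fail to pass, so the count of 0 does not show that the slopes were alike.

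**Figure D3:**
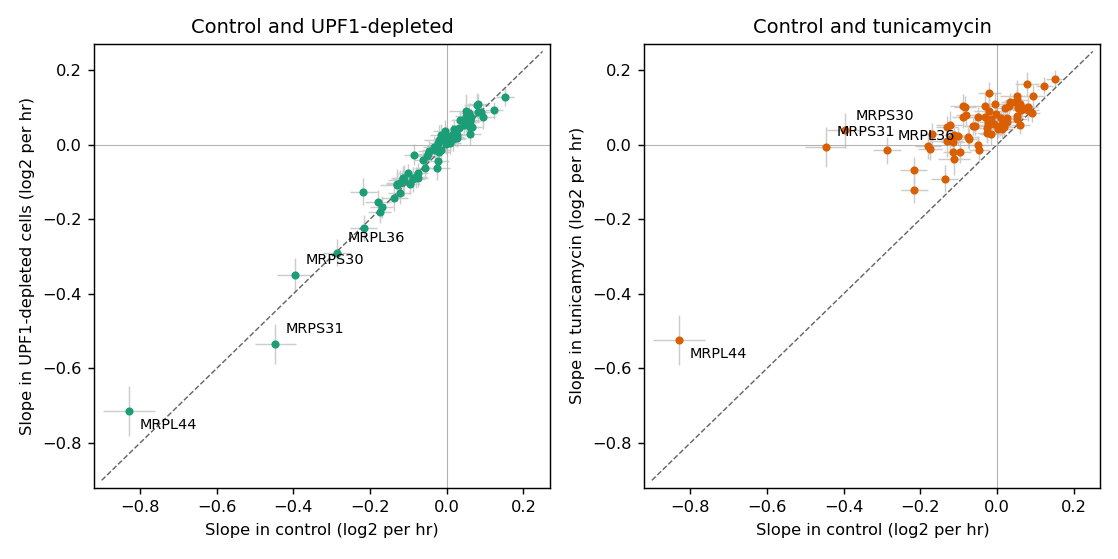
Slope of each member in control cells (horizontal, log2 per hr) against its slope in UPF1-depleted cells (left) and tunicamycin (right), with grey bars of 1 SE and the line of equality dashed. Points follow the line on the left, and 73 of 75 lie above it on the right, MRPS31 and MRPS30 farthest.

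Under tunicamycin most members that moved rose. There 27 members rose and 2 fell, while 11% of all genes tested rose and 11.4% fell. The 2 were MRPL44 and MRPL34 (-0.12 ± 0.035), and MRPL58, also known as ICT1 and a peptidyl-tRNA hydrolase built into the large subunit, fell in control cells and rose here. MRPL58 read 1743.1, 1705.7, 1445.5 and 1376.5 in control cells and 1627.0, 1903.4, 1952.9 and 2292.3 under tunicamycin. Its control and tunicamycin arrays did not overlap from 1.5 hr on. All 6 control risers rose, and the other 20 had not passed in control cells, MRPL30 (0.16 ± 0.032) and MRPS9 (0.14 ± 0.029) among them. The MRPL30 slope was -0.21 with the median of its probe sets in place of the brightest. That median lies close to its probe set of middle brightness, which is of a type that can cross-hybridize. With that centring 18 rose and 3 fell. The 27 and 2 became 2 members in all when the first tunicamycin array was left out, and 5 when the last was.

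Tested directly, the slope was higher than in control for 14 members and lower for 0, against 4.66% of genes tested called higher. Of all 75, 73 had a positive difference, with a median of 0.076 log2 per hr, beside 0.005 for all genes tested. The largest were MRPS31 (0.44 ± 0.072, adjusted p = 0.00361) and MRPS30 (0.43 ± 0.048, adjusted p = 0.000496), followed by MRPL44 (0.31 ± 0.069, adjusted p = 0.0221) and MRPL36 (0.27 ± 0.037, adjusted p = 0.00139). MRPL1, which forms the stalk where spent tRNA leaves, read 1443.1, 1559.3, 1180.1 and 1163.6 in control cells and 1344.3, 1674.0, 1708.2 and 1912.2 under tunicamycin. Its slope differed by 0.19 ± 0.040. MRPL46, MRPL58, MRPL32, MRPL15, MRPL39, MRPS17, MRPS22, MRPS9 and MRPS18C made up the rest, at 0.16 to 0.20. The count fell to 2 without the 0 hr array of either control or tunicamycin, and to 5 and 3 without their 4.5 hr arrays.

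The same held against hypoxia and UPF1-depleted cells in comparisons added after the data were seen. Tunicamycin slopes were not tested against emetine. Slopes were higher in tunicamycin than in hypoxia for 13 members and lower for 0 (3.37% of genes tested were called higher), and higher than in UPF1-depleted cells for 8 and lower for 0 (2.95%). MRPS30 differed by 0.44 ± 0.048 from hypoxia and 0.39 ± 0.048 from UPF1-depleted cells, and MRPS31 by 0.35 ± 0.072 and 0.53 ± 0.072. MRPL44 did not pass in either, at -0.09 ± 0.069 and 0.19 ± 0.069. The 13 became 1 without the 0 hr array of hypoxia or tunicamycin or the 4.5 hr array of hypoxia, and 3 without the 4.5 hr array of tunicamycin. The 8 became 0 without the UPF1-depleted array at 4.5 hr, 2 without either end array of tunicamycin, 3 without the first UPF1-depleted array, and 13 without the 3 hr one.

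The time course shows where the tunicamycin pattern lay. At 0 hr, 70 of 75 members read below the control array, with a median of -0.182 log2. The median was -0.023 at 1.5 hr, 0.111 at 3 hr and 0.174 at 4.5 hr, when 55 read above control. For all genes tested the medians were -0.028, -0.010, -0.034 and -0.017. Against the tunicamycin array at 0 hr, 71 members were higher at 1.5 hr and 64 at 4.5 hr. Their medians were 0.215 and 0.321, beside 0.099 and 0.144 for all genes tested. In 68 nuclear genes for respiratory chain subunits these medians were 0.168 and 0.332, after -0.156 against control at 0 hr. The low start and the rise against 0 hr were thus shared with that list. Those genes still read below control at 4.5 hr (-0.089) and rose in control cells too (0.291 at 4.5 hr, members -0.045).

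**Figure D4:**
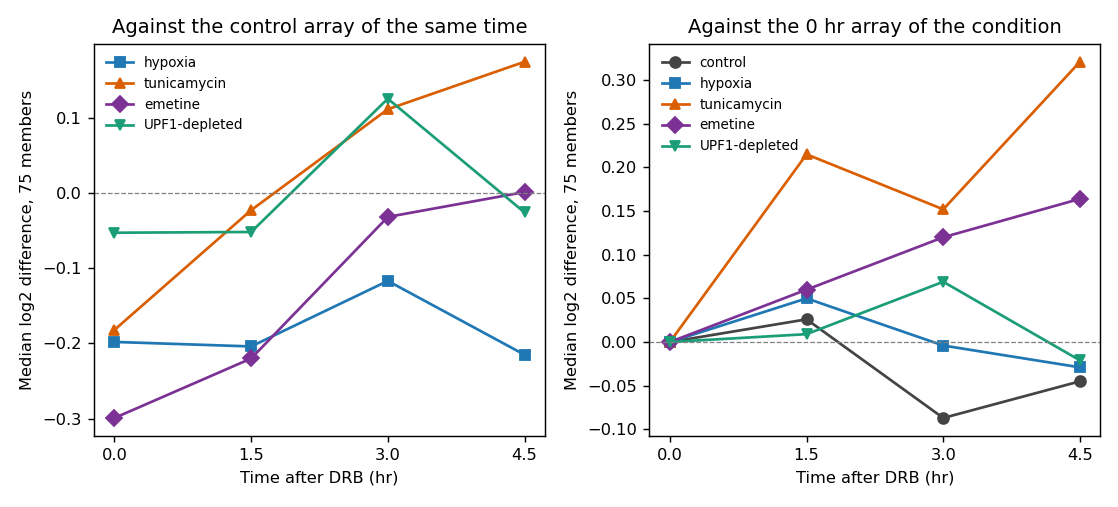
Median log2 difference over the 75 members against time after DRB (hr): against the control array of the same time (left) and against the condition's own 0 hr array (right), 1 line per condition. Tunicamycin goes from -0.182 to 0.174 on the left, emetine from -0.299 to 0.001, and hypoxia stays between -0.216 and -0.117.

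Under emetine no member moved past the threshold after DRB (0 of 75 slopes in limma, 16 at an unadjusted p under 0.05, while 0.394% of all genes tested passed). The slopes ran from -0.027 for MRPL44 to 0.12 for MRPL30, which was -0.38 with the median of its probe sets and passed in neither. Against control, 21 slopes were higher and 0 lower, beside 12.8% of genes tested called higher. MRPL44 differed most (0.80 ± 0.069, adjusted p = 1.35e-05), then MRPS31 (0.45 ± 0.072, adjusted p = 0.000826), MRPS30 (0.43 ± 0.048, adjusted p = 6.33e-05), MRPL36 (0.29 ± 0.037, adjusted p = 0.000156) and MRPL15 (0.24 ± 0.041, adjusted p = 0.00147). MRPL10 differed by 0.13 ± 0.039, and MRPL52, the steepest riser of control cells, was not called (-0.10 ± 0.032, adjusted p = 0.0579). After quantile normalization 19 were higher and 1 lower. All comparisons with control share the same 4 control arrays. The 21 became 6 without the control array at 0 hr or the emetine array at 4.5 hr, and 10 without the emetine array at 0 hr.

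Levels at DRB addition were compared next. The level and the slope of a condition come from the same fit, so a low 0 hr array lowers the level and raises the slope together. In every condition the level counts are thus not independent of the slope counts above. In emetine the fitted level was lower than in control for 35 of 75 members and higher for 0, against 19.8% of genes tested called lower, with a member median of -0.279 log2 beside -0.076. By origin, 13 of 30 and 9 of 20 large-subunit proteins with and without bacterial relatives were lower, and 8 of 14 and 5 of 11 of the small subunit. Of 13 members mutated in inherited disorders of mitochondrial translation, 10 were lower, among them MRPS16 (-0.49 ± 0.107) and MRPS34 (-0.38 ± 0.102). Leaving out the 0 hr array reduced the 35 to 11 for control cells and to 20 for emetine. The ACTB end ratio above differed from control in emetine, and its part in these levels was not tested.

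MRPL42 had the lowest level difference from control in emetine. It read 1104.1, 1312.0, 1447.1 and 1502.8, against 1841.7, 2241.6, 1976.2 and 2664.3 in control cells, with no overlap, and its fitted level differed by -0.71 ± 0.113 (0.61-fold, adjusted p = 0.000367). All 3 MRPL42 probe sets passed in this direction. MRPL12, the stalk protein that also binds the mitochondrial RNA polymerase, read 1179.5 to 1526.8 in emetine and 1874.0 to 2341.8 in control, a level difference of -0.66 ± 0.094 (adjusted p = 0.000146). Its dimmer second probe set gave 0.01. MRPL15 was at -0.65 ± 0.114, and MRPS25 read 728.6 to 958.1 against 1139.8 to 1419.9 in control cells.

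Probe sets of MRPL30 disagreed. The brightest read 350.9 to 512.7 in emetine and 563.3 to 770.7 in control cells, a level difference of -0.69 ± 0.114. Of the other 4, 3 had negative estimates in emetine, and the remaining one, of a type that can cross-hybridize, was higher by 0.69 and past the threshold. MRPL34 stood against the rest: at -0.52 ± 0.145 its tunicamycin level was the lowest estimate there without passing (adjusted p = 0.0833), and in emetine it was 0.035 ± 0.145. In the comparison of emetine with tunicamycin, added after the data were seen, 22 members were lower in emetine and MRPL34 alone was higher (0.55 ± 0.145, adjusted p = 0.0116), beside 14% and 17.7% of genes tested. The 23 became 4 without the first emetine array, 13 without the 1.5 hr one, and 8 and 12 without those of tunicamycin.

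**Figure D5:**
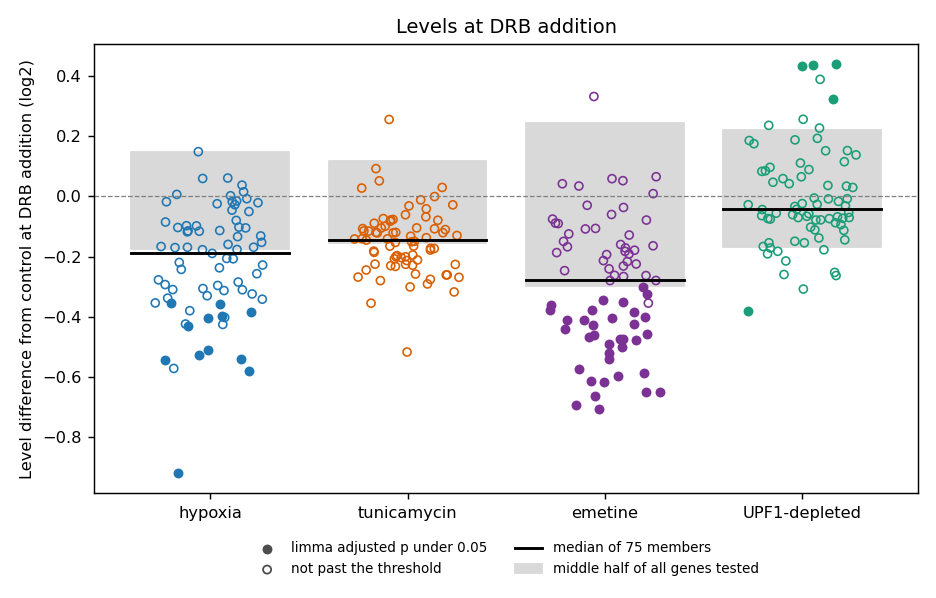
Fitted level difference from control at DRB addition (log2) of each of the 75 members in the 4 other conditions, filled where the limma adjusted p is under 0.05. The black line is the member median and the grey band runs from the lower to the upper quartile of all genes tested. Emetine has the lowest median (-0.279), and no tunicamycin point is filled.

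Hypoxia lowered 12 members and raised 0, against 4.44% of genes tested called lower, with a median of -0.189 beside -0.016. MRPL44 was lowest (-0.92 ± 0.192, 0.53-fold, adjusted p = 0.0145), then MRPS30 (-0.58 ± 0.133, adjusted p = 0.0216), MRPL1 (-0.54 ± 0.112, adjusted p = 0.0135) and MRPS12, a protein of the decoding centre (-0.51 ± 0.107, adjusted p = 0.0147). MRPS12 read 2817.5, 2606.8, 2579.0 and 2493.3 in hypoxia and 4068.2, 3563.3, 3269.6 and 3238.0 in control cells, with no overlap. MRPL1 read 733.8 to 1014.6 in hypoxia, below all control arrays. MRPL38, MRPS11, MRPL46, MRPL15, MRPS35, MRPS17, MRPL21 and MRPS14 were the others. The count was 0 without the 0 hr array of either control or hypoxia, 5 without the 1.5 hr array of either, and 7 without the hypoxia array at 4.5 hr. The ACTB end ratio differed here as in emetine, and its part was not tested.

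Tunicamycin changed no member's level past the threshold (0 of 75 in limma, 18 at an unadjusted p under 0.05, while 2.89% of genes tested passed), although 70 of the 75 estimates were negative, with a median of -0.145 beside -0.029. After MRPL34, the largest statistic was that of MRPL52 (-0.32 ± 0.090, adjusted p = 0.0850). It read 917.8 at 0 hr against 1190.2 in control cells. MRPS31 (0.26 ± 0.202) was the highest estimate and MRPL2 read 221.2 against 227.8.

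After UPF1 depletion 4 members (5.33%) were called higher and 1 (1.33%) lower. Both shares lay below those of all genes tested, 9.68% higher and 3.99% lower. MRPL10 read 1997.2, 1884.5, 1648.3 and 1332.9 in UPF1-depleted cells against 1526.1, 1424.6, 1073.1 and 1096.1 in control, higher at every time but overlapping, with a level difference of 0.44 ± 0.108 (adjusted p = 0.0192). MRPL49 read 1941.2 to 2056.7 against 1342.5 to 1578.9, and MRPS10 2111.6 to 2240.8 against 1503.5 to 1641.8, neither overlapping. MRPL49 differed by 0.44 ± 0.106, MRPS10 by 0.43 ± 0.100 and MRPS6 by 0.33 ± 0.100. MRPL1 was lower by -0.38 ± 0.112 (adjusted p = 0.0422), reading 812.1 to 1112.5 against 1163.6 to 1559.3, a call lost in 16 of 29 alternatives (adjusted p from 0.0104 to 0.426). The 2 other MRPS10 probe sets had differences of 0.12 and -0.01 that did not pass. The count of 5 became 0 without the 0 hr array of control or of UPF1-depleted cells and 3 without any of 11 others, and after quantile normalization 3 were higher and 4 lower. The ACTB ratio in these cells lay between control and hypoxia, and its part was not tested.

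The homologues of bacterial S18 were measured separately. MRPS18C, a small-subunit form, fell in control cells (-0.08 ± 0.028). Its slope was higher in tunicamycin by 0.16 ± 0.037 (limma adjusted p = 0.0263). At 4.5 hr it read 1378.0 in control cells and 2149.9 in tunicamycin. MRPS18A, which sits on the large subunit, did not pass in control cells and rose under tunicamycin (0.11 ± 0.030). MRPS18B, also of the small subunit, had no slope or level result past the threshold. At 4.5 hr 79.6% of the 0 hr signal of MRPS18C, 78.2% of MRPS18B and 99.3% of MRPS18A remained in control cells, against 132.5%, 93.2% and 144.8% under tunicamycin, so all 3 kept more there. The genes were not tested against each other. MRPS22, a small-subunit disorder gene, fell in control cells (-0.09 ± 0.028) and differed by 0.16 ± 0.034 in tunicamycin and 0.13 ± 0.034 in emetine. KGD4 had a control slope of -0.02 ± 0.031 and rose under tunicamycin (0.11 ± 0.031).

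Other genes of mitochondrial translation were set beside the members. Of 78 tested (assembly factors, translation factors, tRNA synthetases, RNA factors and subunits named otherwise), 32 fell and 4 rose in control cells, with higher slopes for 8 in tunicamycin and 27 in emetine, and lower ones for 0. Over all genes tested 17.5% fell and 14.2% rose in control cells, and 4.66% and 12.8% had higher slopes in tunicamycin and emetine. Assembly factors (13 of 26 fell) included MTERF3 (-0.37 ± 0.042 in control, higher by 0.35 ± 0.059 in tunicamycin). Of 20 mitochondrial RNA factors 10 fell, steepest TRMT10C, the methyltransferase of mitochondrial RNase P (-1.15 ± 0.098). At DRB addition 16 of these genes were higher and 18 lower in emetine, where 18.9% of all genes tested were higher and 19.8% lower. After UPF1 depletion 17 were higher and 2 lower, beside the 9.68% and 3.99% of all genes given above. DAP3, a small-subunit protein under another name, was lower in hypoxia (-0.33 ± 0.091) and emetine (-0.36 ± 0.091) and higher after UPF1 depletion (0.33 ± 0.091).

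Among 58 cytosolic ribosomal protein genes, 0 fell and 2 rose in control cells, 0 had a lower level in hypoxia and 2 in emetine, and 0 slopes differed from control in tunicamycin or emetine. Their median level differences were 0.016 in hypoxia and -0.005 in emetine. Of 68 nuclear genes for respiratory chain subunits, whose products work with those the mitochondrial ribosome makes, 26 rose and 1 fell in control cells. Over all genes tested 14.2% rose and 17.5% fell there. For the 68 genes 0 slopes differed from control in tunicamycin, and 2 were lower in emetine (1.58% of genes tested). Levels were lower in emetine for 13 of the 68, where 19.8% of genes tested were called lower. The difference between these lists and the members was not tested.

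For 37 members more than 1 probe set was present. For the 11 called control slopes with a second probe set, 14 of 18 other probe sets had the same sign, of which 2 passed, and none was called the opposite way. Most of the called control slopes thus rest on 1 probe set. In MRPS25 the brightest probe set rose in hypoxia, tunicamycin and UPF1-depleted cells, while a dimmer one fell there and in control cells (-0.43). The MRPL30 slope was also negative in hypoxia (-0.29) and UPF1-depleted cells (-0.15) with the median of its probe sets, where the brightest one rose. That median lies close to the middle probe set in brightness (mean 121.0), the one called the opposite way in emetine. For 31 members all probe sets are of types that can detect several transcripts.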

How the data were processed

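RNA from U2OS cells was hybridised to 20 Affymetrix 3' arrays, 1 for each of 5 conditions and 4 DRB times. The deposited values are RMA intensities on a linear scale, 1 per probe set, per the submitters' processing notes and the values. RMA sets the probes of every array to one distribution, so a change shared by most transcripts is largely hidden. The deposited probe set values still differed between arrays. Their upper quartile ran from 162.4 (control, 4.5 hr) to 200.9 (UPF1-depleted cells, 0 hr). Arrays have no read depth, and their number limits the precision. Gene symbols came from GEO's annotation of the platform: 41097 of 54675 had 1 symbol, 1801 several and 11777 none, and 41037 matched RefSeq.

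Each gene took its brightest probe set, and genes above the 40th percentile of probe sets (an intensity of 26.03) were kept. On log2 values limma 3.58.1 (R 4.3.3; lmFit and eBayes) fitted a time factor with a level and a linear slope per condition over all 20 arrays. This gave differences from control in level at DRB addition and in slope (8 residual degrees of freedom). A line per condition gave each condition's own slope (10). P-values were adjusted by Benjamini-Hochberg over 14478 genes, with a threshold of 0.05. The fits were tested on simulated data. SE is limma's moderated standard error.

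Members and lists were chosen with earlier results of these data known. Named genes are the 3 highest and 3 lowest called members per result, or the largest statistics where fewer than 2 passed, and 13 members of known role (with KGD4, the former MRPS36). Further members were named after their values were seen, among them MRPS2, MRPL15 and MRPL36 in control cells. The comparisons of tunicamycin with hypoxia and with UPF1-depleted cells, and of emetine with tunicamycin, were added after seeing the data. Alternatives covered normalization, filter, probe set choice, model and each array left out.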

Additional observations from a re-analysis of the deposited data

Results flagged for a closer look

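Among 175 sets of 4 arrays (34 named members and the member median in 5 conditions), 10 held an array far from the other 3. This is close to the share that chance gives, about 1 in 20, so the arrays below are listed as a description only. The median over the members was 1419.6 in UPF1-depleted cells at 4.5 hr, against 1568.8 to 1590.3 at the other times, and MRPL1 read 812.1 on that array against 1064.6 to 1112.5. MRPL57 stood apart in 3 conditions. It read 2417.7 in control cells at 4.5 hr (others 2264.3 to 2276.6), 2145.5 in hypoxia at 1.5 hr (2042.1 to 2050.9) and 1634.6 in emetine at 0 hr (1809.5 to 1823.7). MRPL44 read 662.5 in emetine at 0 hr (599.5 to 609.6), and MRPL49 read 1455.7 in emetine at 4.5 hr (1366.4 to 1380.8). In tunicamycin MRPL2 read 221.2 at 0 hr (274.7 to 279.8) and MRPL28 1372.5 at 4.5 hr (1145.9 to 1172.3). MRPS18A read 760.7 in hypoxia at 3 hr (668.5 to 673.8). Each group here is a time series, so an end array can stand apart through a trend.

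Slopes differed between conditions by a direct test for 14 members (tunicamycin against control), 21 (emetine against control), 13 (tunicamycin against hypoxia) and 8 (tunicamycin against UPF1-depleted cells), as limma's interaction of condition with time gave them.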

How the results depend on the processing

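Raw counts of called members moved over 1.5 times in these settings. The first setting left fewer members to count, so its counts would fall even with unchanged shares. Its counts alone thus show no dependence on the probe sets left out. With probe sets of possible cross-hybridization left out, 42 members remained: 22 had a level difference in emetine, 5 in hypoxia, 3 in UPF1-depleted cells and 11 between emetine and tunicamycin. Slopes then passed for 10 in control, 15 in hypoxia, 12 in tunicamycin and 9 in UPF1-depleted cells, and slope differences for 5 (tunicamycin), 7 (emetine), 7 (tunicamycin against hypoxia) and 4 (against UPF1-depleted cells). Level differences in hypoxia numbered 21 with arrays centred on cytosolic ribosomal protein genes, 24 with a trended robust prior, 22 as a mean over the 4 times, 5 without a filter and 6 without the time factor. In UPF1-depleted cells they numbered 13 as a mean over the 4 times and 3 without a filter or without the time factor, and in tunicamycin 3 with the trended robust prior and 6 as a mean over the 4 times. Slope differences in tunicamycin numbered 8 with the median of a gene's probe sets and 9 without the time factor. Against hypoxia they numbered 20 with the trended robust prior, and against UPF1-depleted cells 15 with it, 13 with a filter at the 60th percentile and 5 with the median of probe sets. In hypoxia 1 slope difference passed with that filter and 1 with that prior. The causes were not tested.

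Leaving out 1 array at a time gave level differences for 0 to 15 members in hypoxia, 0 to 1 in tunicamycin, 11 to 38 in emetine, 0 to 5 in UPF1-depleted cells and 4 to 23 between emetine and tunicamycin. Slope differences from control ranged over 0 to 1 in hypoxia, 2 to 16 in tunicamycin, 6 to 23 in emetine and 0 to 0 in UPF1-depleted cells. For tunicamycin they ranged over 1 to 16 against hypoxia and 0 to 13 against UPF1-depleted cells. Own slopes ranged over 9 to 31 in control, 5 to 35 in hypoxia, 2 to 32 in tunicamycin, 0 to 0 in emetine and 5 to 34 in UPF1-depleted cells. Without an end array a slope has a wider SE, and without a 0 hr array the level at DRB addition is extrapolated. Calls can thus be lost even where the array left out lies on the line of the others. No paired analysis was possible because replicate numbers name the DRB time, which the model already holds as a factor. Among single genes, the level of MRPL12 in emetine was 0.0141 without probe sets of possible cross-hybridization, and the tunicamycin slope of MRPS16 was -0.0248. With the median of its probe sets MRPL30 had an emetine level difference of 0.6691. Its slopes were then -0.2944 in hypoxia, -0.2094 in tunicamycin and -0.1498 in UPF1-depleted cells. These values largely follow 1 probe set of middle brightness that can cross-hybridize, and are no consensus of the MRPL30 probe sets.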
